A study of Homo sapiens with 6 samples.

Results

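Tumour necrosis factor (TNF) superfamily ligands, their receptors and the TRAF adaptors were followed in T47D cells, a human breast cancer line of luminal type, under normoxia and hypoxia. Genes were taken by symbol alone: the numbered TNFSF and TNFRSF symbols, the members that carry other names (TNF, LTA, LTB, LTBR, FAS, FASLG, CD27, CD40, CD70, NGFR, EDA2R, EDAR, RELT) and TRAF1 to TRAF7. That gave 52 of the 27754 genes in the count files, made up of 16 ligands, 8 receptors with a death domain, 4 decoy receptors, 17 other receptors and 7 TRAFs. RNA sequencing covered 3 libraries of control cells at 20% O2 and 3 libraries of cells held at 0.5% O2 for 48 hours in an incubation chamber. The growth medium was the same for all cells, RPMI with fetal bovine serum, no agent or genetic change is labelled, and all libraries come from this single cell line, so nothing here extends to other lines. The O2 level is that of the sample labels, and the study's text states another level for the same experiment. The labels do not say whether the numbered replicates were separate cultures, whereas the study speaks of independent experiments and of paired samples. The tests measure the spread between these libraries.

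TNF superfamily ligands act as trimers on or shed from the cell surface, and each binds one or a few receptors. Some receptors with a cytoplasmic death domain can assemble FADD and caspase-8 and start apoptosis, but not all of the group do. Many receptors without one recruit TRAF adaptors directly and feed the NF-kB and MAP kinase pathways. Decoy receptors bind ligand without passing on a full signal, and tumour cells are known to express death receptors, decoys and NF-kB survival genes side by side.

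The libraries held between 32989104 and 89883409 counts, and hypoxia replicate 3 was the deepest. A count of 3, taken as the floor, corresponded to 0.0334 to 0.0909 counts-per-million (CPM), which covers counting error only because the reads carry no molecular identifiers and may repeat a molecule. Values per library are given below in the order of the replicate numbers, and because the depths differ the means are given as TMM-normalised CPM ± SD with n = 3 libraries per condition. VEGFA, a known target of the hypoxia-inducible factors, rose with a log2-fold change of 4.36, and CA9, another, with 5.29. The luminal epithelial markers (ESR1, GATA3, FOXA1, KRT8, KRT18, KRT19, EPCAM) were all expressed, summing to 11741 to 16606 CPM in normoxia and 9184 to 12625 CPM in hypoxia, and 3 of the 7 fell (ESR1, GATA3 and FOXA1). With replicate as a block in the fit 5 of the 7 were lower, KRT8 (adjusted p = 7.55e-05) and KRT18 (adjusted p = 0.00107) being the others. Leukocyte markers, which matter here because many of these ligands and receptors are best known from leukocytes, summed to 1.77 to 2.08 CPM in normoxia and 4.92 to 5.89 CPM in hypoxia over 7 genes. Of them MS4A1 was at 0 in every library and PTPRC, the pan-leukocyte antigen CD45, had 0, 0 and 0 counts in normoxia and 4, 1 and 5 in hypoxia. Of the others ITGAM rose (log2-fold change of 2.88), and the part of leukocyte markers in the results below was not tested. Endothelial markers stayed at or below 0.514 CPM in sum, and the fibroblast markers were nearly all COL1A1.

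Of the 52 genes, 35 (67.3%) had a mean of at least 10 counts over the 6 libraries and are called detected. For all genes in the files that share was 57.1%. Detected were 9 of 16 ligands, 7 of 8 death-domain receptors, 2 of 4 decoys, 10 of 17 other receptors and 7 of 7 TRAFs. The 17 others included TNFSF8, TNFSF11, TNFRSF13B and TNFRSF17, which had 0 counts in all 6 libraries.

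In hypoxia, the receptors NGFR, TNFRSF11A (RANK) and TNFRSF21 (death receptor 6) and the ligand TNFSF15 (TL1A) rose most among members with at least 100 counts on average, with log2-fold changes of 5.00, 2.41, 2.22 and 2.31. TRAIL, its receptor TNFRSF10B and its decoy TNFRSF10C also rose, while the receptors LTBR and FAS and the adaptors TRAF2 and TRAF7 fell, by less than 1 on the log2 scale. The filter of edgeR on low counts kept 33 members, since the detected TNFSF13B and TNFRSF6B did not pass it. Of these, 17 were higher and 4 lower, and 12 were not called at an adjusted p of 0.05. Over all 15657 genes tested, 59.5% passed that threshold, 30.4% being higher and 29.1% lower. With an adjusted p under 0.05 and a log2-fold change of at least 1 there were 13 of the 33 members, against 15.2% of all tested genes. At -1 or below there were 0 members whatever the p, with edgeR's quasi-likelihood test as with its exact test and DESeq2. Of all tested genes 4.91% were at -1 or below with an adjusted p under 0.05. For 33 members, 0 is not far from that share and is not read as a trait of them. The median log2-fold change was 0.46 over the tested members and 0.03 over all tested genes. Upper-quartile scaling raised the median of all genes by 0.157 and gave 20 members higher and 2 lower, and with it 64.5% of all called genes were higher, against 51.1% with TMM. CD70, TNFSF14 and TNFRSF1B had no more than 8 counts in any normoxia library, so they entered the test through hypoxia and could hardly have appeared as anything but higher. All of them are counted among the 17 higher members and among the 13 with a log2-fold change of at least 1. Without replicate 3 of both conditions, the pair that deviated most from the other libraries, 20 members were higher and 6 lower. As these are bulk libraries, a lower level in every cell and a smaller share of expressing cells cannot be told apart.

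**Figure D1:**
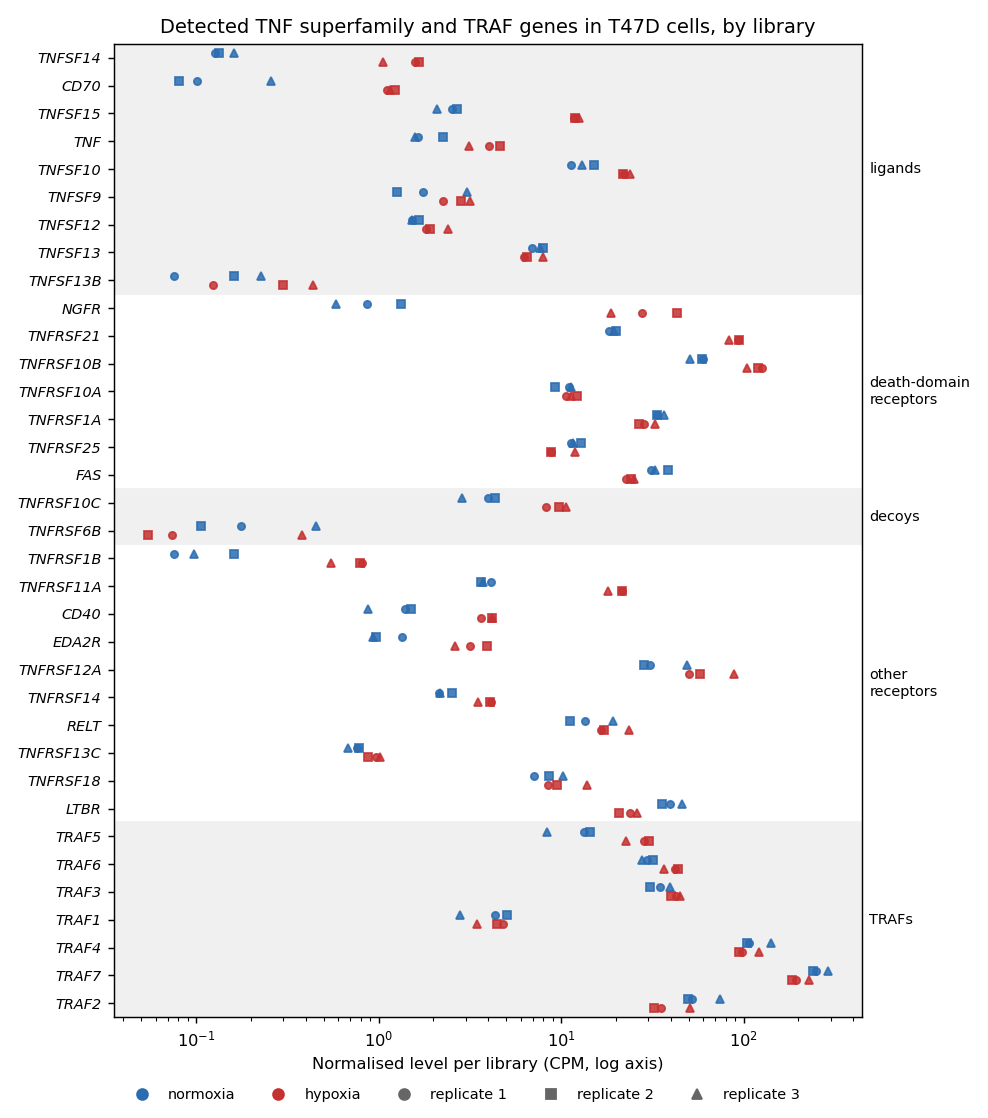
Level of each of the 35 detected genes in each library, in TMM-normalised CPM on a log axis, ordered by role. Blue is normoxia, red is hypoxia, and marker shapes give the replicate number. NGFR, TNFRSF21, TNFRSF11A and TNFSF15 show 2 groups of points far apart, while TRAF1, TNFSF13 and TNFRSF10A overlap.

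Promoter sequences of 300 bases in all (250 before the start and 50 after it) were given by RefSeq on GRCh38.p14 for 37 of the 52 members, and the 250 bases before the start were searched on both strands for ACGTG and GCGTG, the core to which hypoxia-inducible factors bind. A core lay in 15 of the 37 (40.5%), against 54.4% of the genes in the count files that have a promoter there. A gene with several listed starts was counted if any of them had the core. Of members with a promoter, 4 of 11 higher, 4 of 4 lower and 5 of 9 not called held it, and among all tested genes the shares were 60.9% of the higher, 66.4% of the lower and 63.1% of those not called. The palindromic form CACGTG, which contains ACGTG on both strands, was found in 4 members (10.8%, against 9.14% of genes in the files). For 3 of these, which stand for both directions of change, the surrounding 30 bases are shown on the gene's strand with the palindrome in capitals. TNFRSF21 and TRAF5 rose and LTBR fell, as described with their values further on. For TRAF5 the nearest of its listed starts is used. The same palindrome lies 213 bases before another start, and a further start has no core in its 250 bases.
TNFRSF21 (chr6:47309922-47309951, reverse strand, palindrome beginning 34 bases before the start): cttcggcgccacCACGTGtgtccctgcgcc
TRAF5 (chr1:211326605-211326634, forward strand, 15 bases before the start): gccacaattcagacgCACGTGagggaaatc
LTBR (chr12:6384016-6384045, forward strand, 134 bases before the start): ccccgcggccctCACGTGctttcccggccg
A match describes the letters only and is not evidence of a bound factor.

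Among the ligands, 5 of the 8 tested rose with edgeR's quasi-likelihood test (62.5%, against 30.4% of all tested genes). With that test 0 fell (against 29.1% of all tested genes), and 0 were lower at an unadjusted p under 0.05 or with edgeR's exact test or DESeq2. However, CD70 and TNFSF14, both among the 5, entered the test through hypoxia, so these counts are no support for a direction of the ligands. TNFSF15 (TL1A, ligand of death receptor 3; GRCh37 chromosome 9, 117546915 to 117568408) had 100, 100 and 65 counts in the normoxia libraries and 478, 439 and 1155 in the hypoxia libraries. Its mean level went from 2.44 ± 0.305 to 12.1 ± 0.433 CPM (log2-fold change 2.31 ± 0.14, SE, adjusted p = 3.99e-05). Every hypoxia library lay above every normoxia library, and the 3 hypoxia values were nearly equal. TNFSF10 (TRAIL, which triggers apoptosis through TRAIL receptors 1 and 2; chromosome 3, 172223298 to 172241297) was the most abundant ligand, per length as well as in CPM. It had 449, 565 and 407 counts against 899, 797 and 2194 in hypoxia, and rose from 13.2 ± 1.91 to 22.7 ± 1.18 CPM (log2-fold change 0.78 ± 0.12, adjusted p = 0.00128). TNF itself (chromosome 6, 31543344 to 31546112) had 65, 84 and 49 counts in normoxia and 163, 169 and 288 in hypoxia. From 1.83 ± 0.372 CPM it rose to 3.93 ± 0.739 CPM (log2-fold change 1.09 ± 0.23, adjusted p = 0.00442), with no overlap between the conditions. The exons of TNF are also listed on 7 alternate copies of its locus in the count files, so reads that match several copies may be missing from its counts, which was not tested.

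The ligands with the largest fold changes were near the limit of detection in normoxia. TNFSF14 (LIGHT, ligand of HVEM and of the lymphotoxin beta receptor; chromosome 19, 6661264 to 6670599) had 5 counts in each normoxia library and 64, 61 and 97 counts in hypoxia. The log2-fold change was 3.32, with a 95% interval of 2.55 to 4.09 (adjusted p = 1.94e-04), but the level reached was only 1.44 ± 0.328 CPM. CD70, the ligand of CD27 (chromosome 19, 6581657 to 6591163), had 4, 3 and 8 counts in normoxia and 45, 45 and 105 in hypoxia. It rose by a log2-fold change of 3.02 (interval 2.11 to 3.93, adjusted p = 5.23e-04) to 1.16 ± 0.0606 CPM. Both genes are also made by activated lymphocytes, and CD3E, the T-cell marker among the leukocyte genes, had at most 10 counts in a library.

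The remaining detected ligands did not pass the threshold. TNFSF9 (4-1BB ligand) had 69, 47 and 95 counts in normoxia and 92, 104 and 290 in hypoxia, a log2-fold change of 0.46 ± 0.32 (adjusted p = 0.247). It passed without normoxia replicate 3, whose 3.07 CPM lay within the range of hypoxia (0.87, adjusted p = 0.0191). TNFSF12 (TWEAK) had 60, 62 and 47 against 74, 70 and 220 counts (log2-fold change 0.39 ± 0.20, adjusted p = 0.124). With upper-quartile scaling TNFSF12 passed at an adjusted p of 0.0484. TNFSF13 (APRIL) had 274, 298 and 238 counts against 252, 237 and 730 (log2-fold change -0.12 ± 0.15, adjusted p = 0.486), and its sign turned under upper-quartile scaling. TNFSF12 and TNFSF13 share 36.6% and 55.8% of their exon bases with the read-through gene TNFSF12-TNFSF13, which was given at most 1 count in a library, and their counts are uncertain for that reason. TNFSF13B (BAFF) had 3, 6 and 7 counts in normoxia and 5, 11 and 40 in hypoxia and was not tested. Of the undetected ligands LTB had 3 to 9 counts, LTA 1 to 6, TNFSF4 1 to 8, FASLG 0 to 5 and TNFSF18 0 to 2.

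Of the 7 death-domain receptors tested, 3 were higher, 1 was lower and 3 were not called, where 30.4% of all tested genes were higher and 29.1% lower. NGFR, the p75 neurotrophin receptor (chromosome 17, 47572655 to 47592382), had 34, 49 and 18 counts in the normoxia libraries and 1129, 1589 and 1710 in the hypoxia libraries. It rose from 0.92 ± 0.371 to 30 ± 12.5 CPM, the largest change of any member (log2-fold change 5.00 ± 0.40, adjusted p = 8.32e-05). The 3 hypoxia libraries ranged from 18.7 to 43.4 CPM, all more than 10 times the highest normoxia value of 1.32 CPM. Of its exon bases 5.91% are shared with LOC100288866 on the opposite strand, which had at most 10 counts in a library.

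TNFRSF21 (death receptor 6; chromosome 6, 47199263 to 47277683), one of the genes with a palindrome close to its start, had 722, 742 and 604 counts in normoxia and 3763, 3447 and 7571 in hypoxia. The level rose from 19.2 ± 0.855 to 90.0 ± 6.25 CPM (log2-fold change 2.22 ± 0.09, adjusted p = 1.24e-05). Its replicates were tight in both conditions. TNFRSF10B (TRAIL receptor 2, also called DR5; chromosome 8, 22877648 to 22926700) had 2378, 2218 and 1586 counts against 5110, 4373 and 9565. It rose from 57.0 ± 5.03 to 117 ± 11.1 CPM (log2-fold change 1.03 ± 0.10, adjusted p = 1.82e-04). No hypoxia library fell below 105 CPM and no normoxia library exceeded 60.2 CPM.

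FAS (chromosome 10, 90750316 to 90776818), the receptor of FAS ligand, was the death receptor that fell. Its counts were 1227, 1432 and 1012 in normoxia and 917, 884 and 2289 in hypoxia, where the last library is the deepest one. Scaled for depth, the level went from 34.1 ± 3.89 to 24.0 ± 1.21 CPM (log2-fold change -0.51 ± 0.10, adjusted p = 0.00399), and the conditions did not overlap. TNFRSF10A (TRAIL receptor 1) had 436, 345 and 353 counts in normoxia and 429, 448 and 1034 in hypoxia, and its log2-fold change, 0.11, had a 95% interval of -0.18 to 0.40 (adjusted p = 0.485). Leaving out both libraries numbered 2 turned its sign. TNFRSF25 (death receptor 3) had 450, 476 and 362 against 357, 323 and 1100 counts, a log2-fold change of -0.27 ± 0.15 (adjusted p = 0.159). Without hypoxia replicate 3, whose value of 12 CPM lay within the range of normoxia, it passed the threshold at -0.44 (adjusted p = 0.0157). TNFRSF1A (TNF receptor 1) had 1319, 1252 and 1133 counts against 1158, 980 and 2976, with a log2-fold change of -0.23 ± 0.10 (adjusted p = 0.0697). It passed with the replicate number as a block (adjusted p = 0.0118) and without hypoxia replicate 3 (-0.32, adjusted p = 0.0151). EDAR was not detected, with 0, 0 and 0 counts in normoxia and 2, 0 and 5 in hypoxia.

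Per length of exon, the death-domain receptors together rose from 54.3 ± 1.09 to 91.4 ± 5.12 RPKM in sum (reads scaled for exon length and library depth), and their order changed. TNFRSF21 made up 9.73% ± 0.315 (SD, n = 3) of that sum in normoxia and 27.0% ± 0.604 in hypoxia. The share of NGFR went from 0.493% ± 0.189 to 9.48% ± 3.47, while FAS went from 14.7% ± 1.37 to 6.15% ± 0.583 and TNFRSF1A from 27.2% ± 1.68 to 13.8% ± 2.18. Each of these 4 shares separated the conditions completely. In the exact permutation test, two-sided, each gave p = 0.1, the smallest that 3 libraries against 3 can give. The shares of TNFRSF10A, TNFRSF10B and TNFRSF25 in this sum gave the same p, so it singles out no gene among these. For the TRAIL receptors alone (TNFRSF10A to TNFRSF10D) the summed level rose from 22.3 ± 1.35 to 41.1 ± 1.96 RPKM. TNFRSF10B took 61.6% ± 2.21 of it in normoxia and 68.4% ± 3.74 in hypoxia, TNFRSF10A 27.2% ± 3.91 and 15.9% ± 1.26, and the decoy TNFRSF10C 11.1% ± 1.81 and 15.7% ± 2.55. These 3 shares also separated the conditions, again with an exact permutation p of 0.1. Shares of a sum depend on each other, and the share of TNFRSF10A was smaller in hypoxia while its own level was 6.04 RPKM in normoxia and 6.51 RPKM in hypoxia.

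**Figure D2:**
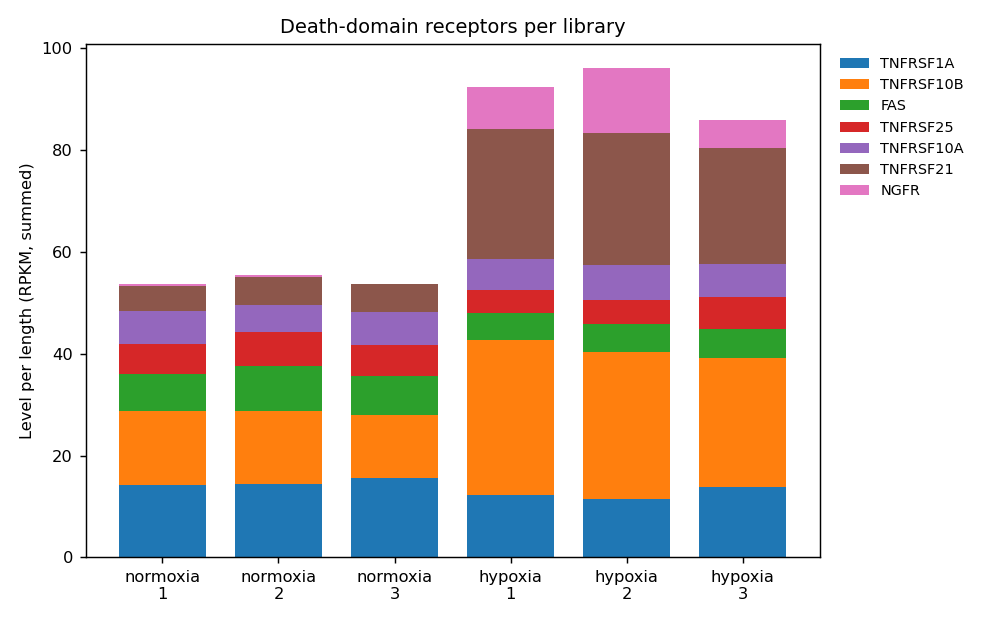
Summed level per exon length (RPKM) of 7 death-domain receptors in each library, stacked by gene (EDAR, with at most 5 counts, is left out). The hypoxia bars are taller, and the bands of TNFRSF21, TNFRSF10B and NGFR widen while that of FAS narrows.

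Only 1 decoy receptor, TNFRSF10C, could be tested. TNFRSF10C (chromosome 8, 22960327 to 22974950), which binds TRAIL but has no cytoplasmic domain, had 157, 161 and 89 counts in normoxia and 335, 359 and 969 in hypoxia. It rose from 3.73 ± 0.758 to 9.56 ± 1.18 CPM (log2-fold change 1.36 ± 0.19, adjusted p = 6.68e-04), and no library of one condition entered the range of the other. It shares 24.6% of its exon bases with LOC254896 on the same strand, whose own counts were 24, 34 and 18 in normoxia and 97, 77 and 180 in hypoxia. Reads in the shared bases may be missing from the count of TNFRSF10C, which is uncertain for that reason, as is its share of the TRAIL receptors. TNFRSF10D, the TRAIL decoy with a truncated death domain, had counts only in the libraries numbered 3, with 5 in normoxia and 13 in hypoxia. TNFRSF11B (osteoprotegerin, decoy of RANK ligand and TRAIL) had 1, 0 and 2 counts against 14, 3 and 28 and was not detected by the limit used. TNFRSF6B, a secreted decoy of FAS ligand, LIGHT and TL1A, had 7, 4 and 14 counts in normoxia and 3, 2 and 35 in hypoxia. Because 90.6% of its exon bases are shared with RTEL1-TNFRSF6B, nothing can be read from it.

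Of the 10 other receptors that were tested, 6 rose and 1 fell (60% and 10%, against 30.4% and 29.1% of all tested genes). TNFRSF1B, among the 6, entered the test through hypoxia and could hardly have appeared as anything but higher. TNFRSF11A (RANK, which drives mammary and osteoclast development; chromosome 18, 59992520 to 60054943) had 164, 136 and 115 counts in normoxia and 876, 786 and 1659 in hypoxia. It rose from 3.84 ± 0.273 to 20.4 ± 1.97 CPM (log2-fold change 2.41 ± 0.13, adjusted p = 3.35e-05). Its ligand TNFSF11 stayed at 0 counts in every library. CD40, the receptor through which T cells activate antigen-presenting cells (chromosome 20, 44746893 to 44758384), had 55, 56 and 27 counts against 148, 154 and 381. Its rise was from 1.26 ± 0.338 to 4.01 ± 0.308 CPM (log2-fold change 1.66 ± 0.23, adjusted p = 7.12e-04), and its ligand CD40LG was at 0 in every library. EDA2R, a receptor of the A2 form of ectodysplasin (chromosome X, 65815482 to 65859140), had 53, 36 and 29 counts in normoxia and 129, 143 and 241 in hypoxia, rising from 1.08 ± 0.226 to 3.24 ± 0.638 CPM (log2-fold change 1.57 ± 0.24, adjusted p = 0.00115). The conditions did not overlap for any of the 3.

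TNFRSF1B (TNF receptor 2; chromosome 1, 12227060 to 12269277) had 3, 6 and 3 counts in normoxia and 33, 29 and 50 in hypoxia. The log2-fold change was 2.63 with a 95% interval of 1.73 to 3.54 (adjusted p = 9.43e-04), and the level in hypoxia was 0.718 ± 0.149 CPM. Per length, TNF receptor 1 remained the more abundant TNF receptor by far, at 12.5 RPKM in hypoxia against 0.195 RPKM for TNFRSF1B. TNFRSF14 (HVEM, a receptor of LIGHT) rose from 2.28 ± 0.212 to 3.91 ± 0.355 CPM (log2-fold change 0.77 ± 0.17, adjusted p = 0.00587).

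TNFRSF12A (FN14, the receptor of TWEAK; chromosome 16, 3070313 to 3072383) was the receptor with the highest level per length in both conditions, at 35.1 RPKM in normoxia and 63.5 RPKM in hypoxia. Its log2-fold change of 0.86 ± 0.27 passed the threshold (adjusted p = 0.0235), though the libraries spread widely. In normoxia the values were 30.8, 28.5 and 49.3 CPM and in hypoxia 50, 57.6 and 88.9 CPM, so that replicate 3 was the highest in both conditions. The call was lost without normoxia replicate 1 (0.74, adjusted p = 0.0824), without normoxia replicate 2 (0.69, adjusted p = 0.0769) and without hypoxia replicate 3 (0.57, adjusted p = 0.0601). In the same-numbered pairs the log2 differences were 0.70, 1.02 and 0.85, and with the block the adjusted p was 2.43e-05.

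LTBR, the lymphotoxin beta receptor and the last of the genes shown with a palindrome, fell from 40.4 ± 5.32 to 23.7 ± 2.69 CPM (chromosome 12, 6484534 to 6500737; log2-fold change -0.77 ± 0.13, adjusted p = 0.00145). Of the members that fell it had the largest change, and its highest hypoxia library (26.2 CPM) was below its lowest normoxia library (35.6 CPM). Its ligands LTA and LTB were not detected, but like TNF they are listed on alternate copies of the locus (6 and 7), so their counts may be too low. RELT, TNFRSF13C (BAFF receptor) and TNFRSF18 (GITR) had log2-fold changes of 0.39, 0.37 and 0.31 that did not pass. With the replicate block RELT (adjusted p = 0.0057) and TNFRSF18 (adjusted p = 0.0396) passed, and RELT also passed without normoxia replicate 3 (0.62, adjusted p = 0.0212) and with upper-quartile scaling (adjusted p = 0.0428). The undetected TNFRSF8 (CD30) had 0, 0 and 0 counts in normoxia and 3, 2 and 14 in hypoxia, and TNFRSF9 (4-1BB) had 2, 0 and 1 against 3, 11 and 17. In a fit without a filter on low counts TNFRSF8, TNFRSF9 and TNFRSF11B passed as higher (adjusted p of 0.0162, 0.0308 and 0.0138), from at most 28 counts in a library. CD27, TNFRSF4 and TNFRSF19 had at most 8 counts in a library.

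**Figure D3:**
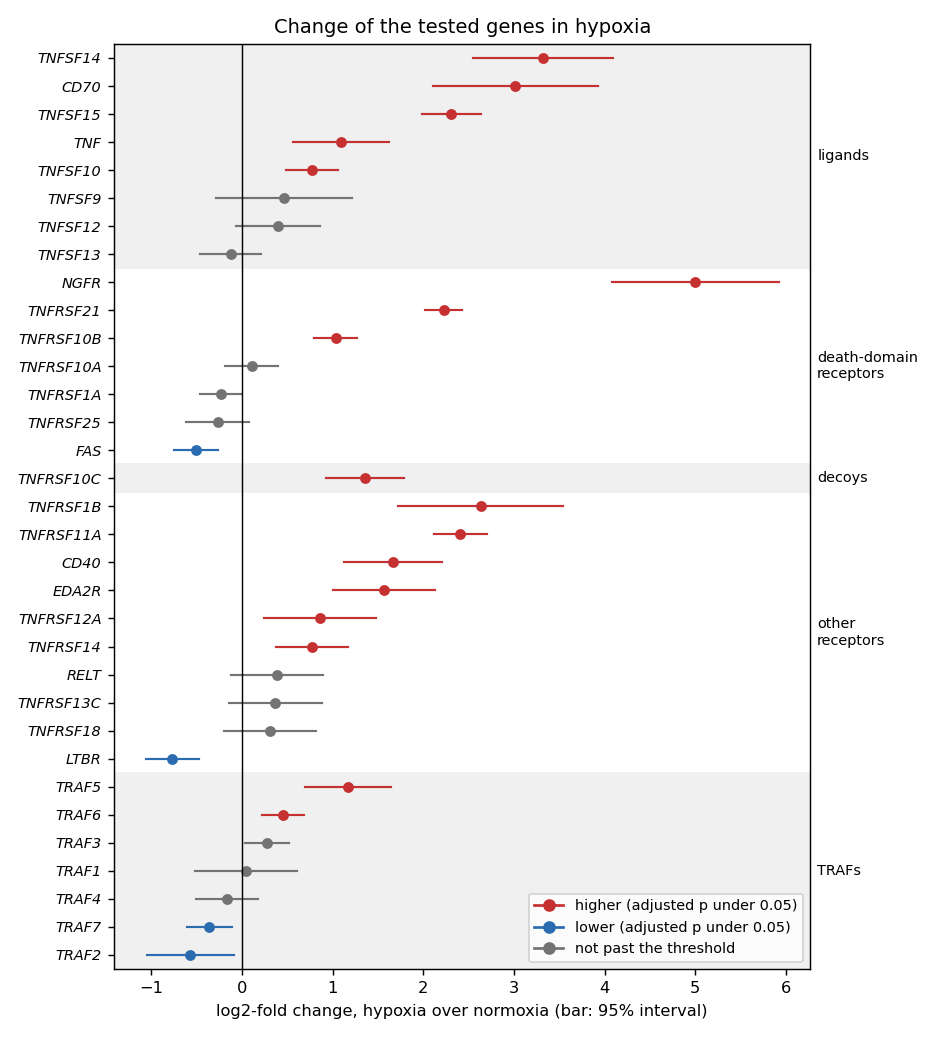
Log2-fold change (hypoxia over normoxia) with its 95% interval for the 33 tested genes, ordered by role and by size. Red passed as higher, blue as lower and grey was not called at an adjusted p of 0.05. NGFR lies farthest to the right at 5.00 and LTBR farthest to the left at -0.77.

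All 7 TRAFs, the adaptors that link the receptors to kinases and ubiquitin ligases, were detected. Of them 2 rose and 2 fell (28.6% each way, against 30.4% and 29.1% of all tested genes), and 3 did not pass. TRAF5 (chromosome 1, 211499957 to 211548286), an adaptor of CD40, CD27 and HVEM, had 526, 534 and 260 counts in normoxia and 1150, 1109 and 2075 in hypoxia. It rose from 12 ± 3.18 to 27.1 ± 3.96 CPM (log2-fold change 1.17 ± 0.21, adjusted p = 0.00197), without overlap. TRAF6, which also serves the interleukin-1 and Toll-like receptors, rose with a log2-fold change of 0.45 ± 0.10 (adjusted p = 0.00557). TRAF2, the main adaptor of both TNF receptors, had a log2-fold change of -0.57 ± 0.21 with an adjusted p of 0.0447, at the edge of the threshold and with overlapping libraries (49.9 to 74.3 CPM in normoxia, 32.4 to 51.0 CPM in hypoxia). Within the same-numbered pairs it was lower by similar amounts, with log2 differences of -0.57, -0.62 and -0.54, and with the block the adjusted p was 5.25e-05. Its call was lost without normoxia replicate 1 (adjusted p = 0.0529), normoxia replicate 3 (0.113), hypoxia replicate 1 (0.132) or hypoxia replicate 2 (0.132), with log2-fold changes of -0.66, -0.37, -0.49 and -0.45.

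TRAF7 was the most abundant TRAF per length, at 70.7 RPKM in normoxia and 55.1 RPKM in hypoxia, and fell with a log2-fold change of -0.36 ± 0.11 (adjusted p = 0.0218). That call was lost without hypoxia replicate 1 (-0.33, adjusted p = 0.0789) and without hypoxia replicate 2 (-0.30, adjusted p = 0.0771), and upper-quartile scaling removed it as well as that of TRAF2 (adjusted p of 0.0932 and 0.0908). The pairs gave -0.36, -0.38 and -0.35 for TRAF7, with an adjusted p of 2.95e-04 in the blocked fit. Through these 2 genes the number of members lower in hypoxia went from 4 to 2 when either hypoxia replicate 1 or hypoxia replicate 2 was left out. TRAF7 shares 25.8% of its exon bases with CASKIN1 on the opposite strand, and since the strand setting of the counting is not given in the sources used here, its count is uncertain. TRAF3, which restrains the non-canonical NF-kB pathway, had a log2-fold change of 0.28 ± 0.11 with an adjusted p of 0.052, and passed with the block (adjusted p = 0.00528), with upper-quartile scaling (0.00459) and without normoxia replicate 3 (0.37, adjusted p = 0.0137). TRAF4 had -0.16 ± 0.15 (adjusted p = 0.368, and 0.0255 with the block), and TRAF1, which is itself an NF-kB target, 0.05 ± 0.24 (adjusted p = 0.88).

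Some ligands and receptors that bind each other are set side by side here by their log2-fold changes. For TL1A the ligand TNFSF15 rose (2.31) while the receptor TNFRSF25 had a log2-fold change of -0.27 and was not called. For LIGHT the ligand TNFSF14 (3.32) and the receptor TNFRSF14 (0.77) rose and the receptor LTBR fell (-0.77). For TRAIL, the ligand TNFSF10 (0.78), the receptor TNFRSF10B (1.03) and the decoy TNFRSF10C (1.36) rose, while the receptor TNFRSF10A (0.11) was not called. For TNF, the ligand (1.09) and the receptor TNFRSF1B (2.63, from 3, 6 and 3 counts in normoxia) rose, while the far more abundant receptor TNFRSF1A (-0.23) was not called. The receptor of CD70, CD27, had at most 4 counts in a library. With the replicate number as a block 20 members were higher and 6 lower.

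Genes around the receptors were taken from 4 lists. Of 15 genes of the death and survival complexes, 5 rose and 5 fell (33.3% each way, against 30.4% and 29.1% of all tested genes; median log2-fold change 0.07). Of those that rose, 1 had a normoxia mean under 10 counts and entered the test through hypoxia. With the replicate block 7 were higher and 5 lower. BIRC3 (cIAP2, a ubiquitin ligase that binds TRAF2 and an NF-kB target) rose by 2.27, CASP8 (the initiator caspase of death receptors) by 0.49 and BIRC2 (cIAP1) by 0.49. FADD (the death-domain adaptor) and MLKL (the effector of necroptosis) had log2-fold changes of -0.60 and -0.48 and were among those that fell. The number higher was 3 when normoxia replicate 1, normoxia replicate 3, hypoxia replicate 1 or hypoxia replicate 2 was left out, and the number lower was 3 without normoxia replicate 1 or without hypoxia replicate 2.

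Of 26 genes of the NF-kB machinery, 10 rose and 3 fell (38.5% and 11.5%, against 30.4% and 29.1% of all tested genes). The median log2-fold change was 0.03, as over all tested genes. TNFAIP3 (A20, a deubiquitinase that limits NF-kB) had 128, 190 and 100 counts in normoxia and 916, 1100 and 1501 in hypoxia, a log2-fold change of 2.57 (adjusted p = 2.25e-04). RELB, the partner of p52 in the non-canonical pathway, rose by 1.97 and TNIP1, which binds A20, by 1.33. CHUK (the kinase IKK-alpha), SHARPIN (a subunit of the linear ubiquitin ligase) and TBK1 fell, with log2-fold changes of -0.75, -0.52 and -0.32. Without normoxia replicate 1, normoxia replicate 2 or hypoxia replicate 1, TBK1 did not pass (adjusted p of 0.096, 0.0826 and 0.0654), although its log2-fold changes of -0.32, -0.31 and -0.36 were close to that of all libraries. Upper-quartile scaling gave -0.16 (adjusted p = 0.281). The number lower was 5 with the replicate block and also without hypoxia replicate 3.

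Of 19 genes known as NF-kB targets 15 were tested, and 11 rose and 0 fell (median 1.61; 0 were also lower at an unadjusted p under 0.05 and by edgeR's exact test and DESeq2). However, 6 of the 15 had a normoxia mean under 10 counts, entered the test through hypoxia and make up 5 of the 11, so count and median are no support for a direction of the list. Of the other 9 genes, 6 were higher and 0 lower (median 1.02), where 30.4% of all tested genes were higher and 29.1% lower. LIF, among the 6, also entered the test through hypoxia, so these counts are no support for a direction of the list either. LIF (a cytokine of the interleukin-6 family) had 18, 14 and 5 counts against 165, 146 and 282, a log2-fold change of 3.44 (adjusted p = 1.62e-04). With 5 counts in normoxia replicate 3, below the filter's minimum count of 10, LIF could hardly have appeared as anything but higher. The chemokine CCL20 rose by 2.78 and the adhesion molecule ICAM1 by 2.02, ICAM1 from 440, 539 and 251 counts to 1860, 2010 and 3310. CCL2, SOD2 and IER3, also on the list, had log2-fold changes of -0.01, -0.16 and 0.26 that did not pass, CCL5 had 1.44 (adjusted p = 0.0585, and 0.00584 with the block) and IER3 passed with the block (adjusted p = 0.0293). Leaving out hypoxia replicate 2 gave 1 gene lower.

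Of 9 further ligands, co-receptors and processing enzymes outside the symbol rule, 7 were tested. Of these, 6 rose and 1 fell (85.7% and 14.3%, against 30.4% and 29.1% of all tested genes). Of those that rose, 1 likewise had a normoxia mean under 10 counts. EDARADD, the adaptor of EDAR, rose by a log2-fold change of 2.42 although EDAR was not detected, and EDA, the ligand of EDAR and EDA2R, rose by 0.66. ADAM17, the protease that sheds TNF and both TNF receptors, rose by 0.55 (adjusted p = 0.00129). SORT1 (sortilin), a co-receptor of NGFR, fell with -0.62 (adjusted p = 0.00142).

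**Figure D4:**
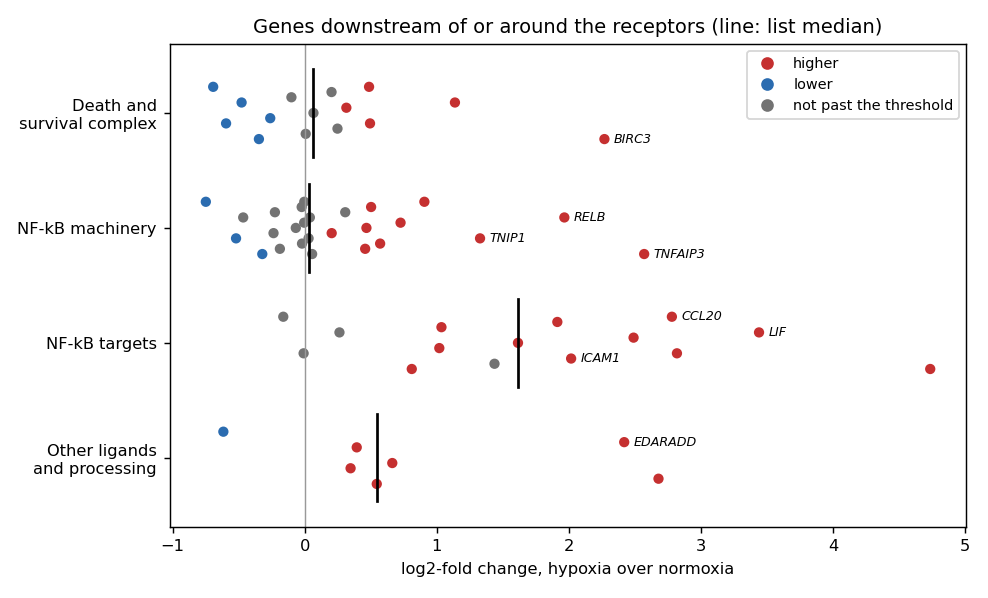
Log2-fold change of each tested gene of the 4 lists, with the list's median as a black line (0.07, 0.03, 1.61 and 0.55 from top to bottom). Points are red where higher, blue where lower and grey where an adjusted p of 0.05 was not passed, and the vertical position within a list only separates the points.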

How the data were processed

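Counts per gene from T47D RNA sequencing were used as deposited. The authors prepared stranded mRNA libraries, trimmed the reads with Skewer, aligned them to GRCh37 (hg19) with STAR 2.5.2a and assigned them to RefSeq genes with featureCounts 1.5.1, after FastQC 0.11.5, per the submitters' processing notes and the study's methods. The deposited counts were not normalised. The strand setting and the handling of reads with several matches are not given in the sources used here.

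Counts were tested with edgeR 4.0.16 in R 4.3.3, by the quasi-likelihood test with TMM normalisation, filterByExpr (minimum count 10, minimum total 15), no term other than condition, and Benjamini-Hochberg adjustment over all 15657 tested genes at 0.05. This test takes the place of the exact test of the study's methods, which was run as an alternative, as were DESeq2 1.42.0, other scalings and filters, a replicate block, and fits with libraries left out. RPKM was computed from TMM-scaled counts and the exon length on the main chromosome. Standard errors were derived from the quasi-likelihood F. Same-numbered libraries deviated together from their condition means (correlations across genes of 0.338, 0.422 and 0.575). The main fit leaves this pairing out. The numbers were taken as pairs only in the alternative fit with the replicate block, and its value is given where it changes a member's call.

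Counts per library were given for detected ligands, for death-domain receptors and decoys, and for other called members changed by 1 or more on the log2 scale. From each further list, the called genes with the 3 largest changes each way and 100 or more counts on average were named. Some genes that met this rule are not reported here. Genes named beyond that rule were chosen after their values were seen. Members, lists and markers were chosen with earlier results of these data known.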

Additional observations from a re-analysis of the deposited data

How the results depend on the processing

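Of the 33 tested members, 16 kept their direction and their side of the threshold in every alternative, 15 of them called. The number of members higher ranged from 13 to 21 when a library, or both of one number, was left out, and of members lower from 2 to 6. The lower count was also 2 with upper-quartile factors and 0 when a change of 1 or more on the log2 scale was also required. With those libraries left out, all tested genes higher ranged from 2648 to 5751 and lower from 2191 to 5506. The lowest values came without both libraries numbered 1, a fit on 4 libraries, which also left TNF, TNFRSF14 and TRAF6 short of the threshold (adjusted p of 0.0697, 0.118 and 0.0905). In the same leave-outs, the death and survival genes ranged from 1 to 7 higher and 1 to 5 lower, the NF-kB machinery from 6 to 11 higher and 1 to 5 lower, the NF-kB targets from 9 to 13 higher and 0 to 1 lower, and the further ligands and processing genes from 3 to 6 higher. Upper-quartile factors left 3 death and survival genes lower, DESeq2 and the replicate block gave 5 genes of the NF-kB machinery lower, and a filter of at least 1 CPM in 3 libraries, which tests fewer genes, left 6 NF-kB targets higher. Log2-fold changes that changed sign were those of TNFSF13 (0.0296 with upper-quartile factors), TNFRSF10A (-0.0378 to 0.189 with libraries left out) and TRAF1 (-0.164 to 0.215). The cause was not tested for any of these. The replicate block, for the pairing by number, gave 20 members higher and 6 lower and, among members, changed no call other than those of TNFRSF1A, RELT, TNFRSF18, TRAF3 and TRAF4. Detection of 35 members became 29 under at least 1 CPM on average and at least 10 counts in every library. Depth limits what can be said of the 17 undetected members, of which 3 (TNFRSF8, TNFRSF9 and TNFRSF11B) passed as higher in a fit without a filter on low counts.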
